A study of Homo sapiens with 30 samples.

Results

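The genes described here supply amino acids to protein synthesis and charge tRNA with them. They were chosen by name and role, in a list drawn up with earlier results of these data known: 36 symbols were looked up in the deposited count matrix, and all 36 were found among its 60107 genes. They comprise 17 cytosolic tRNA synthetases, the asparagine synthetase ASNS, 3 enzymes of serine synthesis, 4 mitochondrial and 2 cytosolic enzymes of one-carbon metabolism, 2 enzymes of proline synthesis and 7 amino acid transporters. All 36 passed the filter on low counts in each fit, and together they held 0.375% to 0.559% of the counts of a library.

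The cells were HepG2, an established human liver cancer line, grown in medium that contained non-essential amino acids and serum. Each culture was transfected with an oligonucleotide and, 24 h later, received sorafenib, a kinase inhibitor used against liver cancer, at 10 µM or its vehicle DMSO. Cultures taken after 6 h carried an inhibitor control (IC) or a miR-200c-3p inhibitor (I200c), and cultures taken after 24 h carried a mimic control (MC), a miR-222-5p mimic (M222) or a miR-512-3p mimic (M512). Each of the 10 groups of transfection and treatment had 3 libraries, which the series describes as biological replicates, so that no culture was left untransfected and time went with the kind of oligonucleotide.

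A tRNA synthetase joins an amino acid to its tRNA, and the amino acid itself comes from transport across the plasma membrane or from synthesis in the cell. When amino acids are short, or when the endoplasmic reticulum or mitochondria are disturbed, kinases phosphorylate the translation factor eIF2alpha, general translation falls and translation of the transcription factor ATF4 rises. ATF4, paired with C/EBP proteins, binds a composite DNA element at many genes of amino acid transport, synthesis and tRNA charging.

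The 30 libraries had a total count of 3938764 to 9657063 with a median of 6460790, and 13252 to 16812 genes had a count. A count of 0 allowed a level of up to 0.311 to 0.762 counts in each 1000000 of a library (CPM), an upper limit of 3 counts that covers counting error only, since PCR copies are not independent molecules. All 10 hepatocyte-lineage markers had a count in every library, with a summed level of 10861 to 17767 CPM in DMSO and 7752 to 13903 CPM in sorafenib. The leukocyte marker list reached 102.8 to 307.9 CPM, nearly all of it LYZ, the endothelial list 0 to 3.02 CPM and the stromal list 27.2 to 118 CPM. The correlation of log2 levels between replicates was 0.932 to 0.983, and the library that stood farthest from its group was replicate 2 of sorafenib with M512, at a mean of 0.933. Levels below are CPM scaled by the trimmed mean of M values (TMM), and since each fragment comes from near the 3′ end of a transcript they are not divided by length and are not compared between genes.

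The composite element, sought here as TGATGNAA on either strand, was present near a transcription start of 13 of the 29 members with a promoter in the RefSeq table (GRCh38.p14, from 250 bases before to 50 bases after each start), or 44.8%. Over all 27305 genes of that table it was present in 4.46%. Counted by window, because a gene can have several starts, it was in 15 of 43 windows of members (34.9%) and in 3.62% of all 35116 windows. Windows of a gene can overlap, and 3 of the 15 hold the same site of MTHFD1L. The stretches below show the element for members whose levels are followed in detail, together with IARS1. The element is in capitals and each stretch is written along the strand of its gene, so that a stretch ending its capitals in CATCA holds the element on the opposite strand.
ASNS, chr7:97872458-97872487, minus strand, 68 bases before a start: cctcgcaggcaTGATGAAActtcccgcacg
GARS1, chr7:30594834-30594863, plus strand, 33 bases before a start: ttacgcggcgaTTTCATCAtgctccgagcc
TARS1, chr5:33440956-33440985, plus strand, 2 bases after a start: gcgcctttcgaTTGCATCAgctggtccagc
MARS1, chr12:57488053-57488082, plus strand, 4 bases before a start: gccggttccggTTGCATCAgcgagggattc
MTHFD1L, chr6:150866346-150866375, plus strand, 24 bases after a start: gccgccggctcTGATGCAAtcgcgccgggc
SLC3A2, chr11:62881725-62881748, plus strand, 37 bases after a start: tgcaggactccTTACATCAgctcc
SLC1A5, chr19:46784893-46784922, minus strand, 97 bases before a start: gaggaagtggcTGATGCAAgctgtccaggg
SLC1A4, chr2:64989381-64989410, plus strand, 7 bases before a start: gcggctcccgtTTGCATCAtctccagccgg
SLC7A1, chr13:29595663-29595692, minus strand, 7 bases after a start: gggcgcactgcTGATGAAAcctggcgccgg
IARS1, chr9:92293692-92293721, minus strand, 13 bases before a start: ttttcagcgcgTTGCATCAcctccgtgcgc
The other members with the element were AARS1, CARS1 and NARS1. LARS1, VARS1, YARS1, PSPH, SHMT2, ALDH1L2 and PYCR1 had no entry in the table.

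The question of the main comparison was how sorafenib moved these genes, by subgroup, after 6 h and after 24 h. After 24 h, averaged over the 3 transfections, 20 of the 36 members were higher and 1 was lower, at a Benjamini-Hochberg adjusted p under 0.05 in edgeR's quasi-likelihood test over all genes. This was 58.3% of the members, where 25.8% of the 13244 genes tested were called in either direction, 13.4% higher and 12.4% lower. The median log2 fold change was 0.44 for the members and -0.04 for all genes. After 6 h, averaged over the 2 transfections, no member was higher and 2 were lower, SLC38A2 and SLC7A1, where 2.89% of 12738 genes were called in either direction and 1.73% lower. Without the filter on low counts 4 members were called at 6 h, with AARS1 added as higher and SLC7A5 as lower. At an unadjusted p under 0.05, 7 of the 36 members passed at 6 h, where 1962 of 12738 genes did. At 24 h 23 members passed, where 4967 of 13244 genes did. The median at 6 h was 0.10 for the members and 0.01 for all genes. In RNA from whole cultures, a change in the mix of cells and a change in RNA per cell cannot be told apart.

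**Figure D1:**
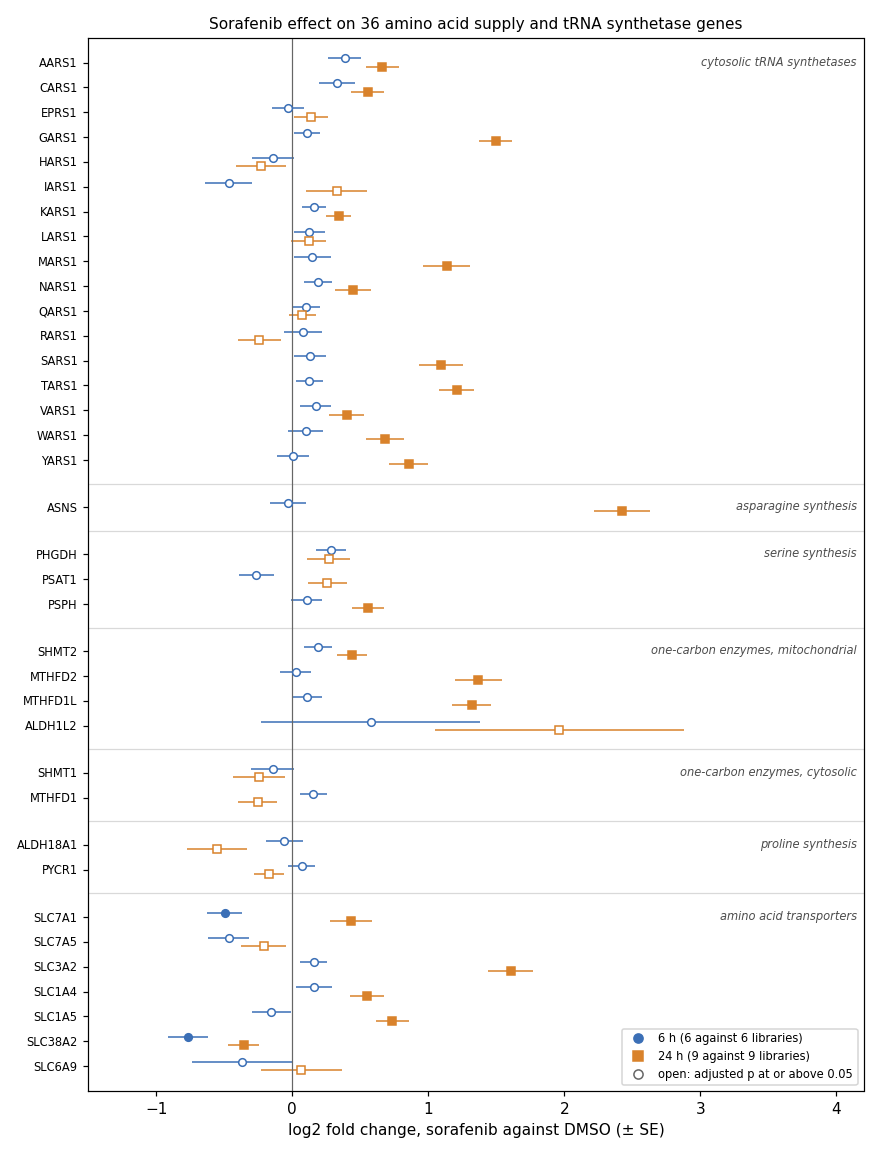
Log2 fold change of sorafenib against DMSO (x axis, with SE) for each of the 36 members (y axis), grouped by role. Circles are the average over 2 transfections at 6 h and squares the average over 3 transfections at 24 h, and filled marks have an adjusted p under 0.05. At 6 h the members lie between -0.77 and 0.58, with SLC38A2 and SLC7A1 called lower, while at 24 h ASNS reaches 2.43 and 20 members are called higher.

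ASNS makes asparagine from aspartate and glutamine. It showed the largest called change of the members. In the 9 DMSO libraries of 24 h its level was 13.7 to 41.5 CPM with a median of 19.6, and in the 9 sorafenib libraries 57.7 to 209 CPM with a median of 109. Every sorafenib library lay above every DMSO library. This was a log2 fold change of 2.43 (SE 0.20, edgeR adjusted p = 8.57e-09), which is 5.38-fold. By transfection the 3 sorafenib libraries read 101, 57.7 and 109 CPM with MC, 111, 104 and 209 CPM with M222, and 101, 125 and 154 CPM with M512. At 6 h the DMSO libraries read 24.6 to 47.7 CPM and the sorafenib libraries 25.8 to 41.1 CPM, so the treatments overlapped, and the log2 fold change was -0.03 (SE 0.13). The gene, ENSG00000070669, lies at chr7:97851677-97872542 on the minus strand in GENCODE release 44 on GRCh38.

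Of the 17 cytosolic tRNA synthetases, 11 were higher at 24 h, none was lower and 6 did not pass the test, with a subgroup median of 0.45. At 6 h edgeR with the filter on low counts and DESeq2 called none of the 17, and edgeR without the filter called AARS1 higher. An unadjusted p under 0.05 was passed by 3 of the 17, where 1962 of 12738 genes passed. The log2 fold changes of the 17 at 6 h ran from -0.47 to 0.39. The 11 synthetases that rose charge tRNA with glycine (GARS1), threonine (TARS1), methionine (MARS1), serine (SARS1), tyrosine (YARS1), tryptophan (WARS1), alanine (AARS1), cysteine (CARS1), asparagine (NARS1), valine (VARS1) and lysine (KARS1).

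GARS1 (ENSG00000106105, chr7:30580533-30634033, plus strand) read 60.9 to 104 CPM in DMSO at 24 h, with a median of 74.5, and 145 to 271 CPM in sorafenib, with a median of 215. The treatments did not overlap in the 24 h libraries. Its log2 fold change was 1.49 (SE 0.12, edgeR adjusted p = 4.55e-09), or 2.82-fold. At 6 h it read 71.5 to 108 CPM in DMSO and 74.7 to 109.6 CPM in sorafenib.

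TARS1 (ENSG00000113407, chr5:33440696-33468091, plus strand) read 133 to 212 CPM in DMSO at 24 h, with a median of 178, and 258 to 555 CPM in sorafenib, with a median of 378. All 9 sorafenib libraries were higher than all 9 DMSO libraries. The log2 fold change was 1.21 (SE 0.13, edgeR adjusted p = 2.25e-07). The lowest sorafenib library, at 258 CPM, was one of MC, where the log2 fold change was 0.82 against 1.37 in M222 and 1.44 in M512.

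MARS1 (ENSG00000166986, chr12:57475445-57517569, plus strand) read 34.3 to 67.3 CPM in DMSO at 24 h, with a median of 61.4, and 80.6 to 182 CPM in sorafenib, with a median of 103.5. These ranges did not overlap either. Its log2 fold change was 1.13 (SE 0.17, edgeR adjusted p = 2.86e-05). Exons of MARS1 overlap those of DDIT3 on the opposite strand, and whether strand was used in counting is not given in the sources used here. DDIT3, a stress-induced transcription factor named here after its values were seen, rose by a log2 fold change of 1.35 (SE 0.18) at 6 h and 2.36 (SE 0.22) at 24 h, while MARS1 was at 0.15 (SE 0.14) at 6 h. The part of DDIT3 reads in the MARS1 value was not tested.

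The other synthetases that rose at 24 h did so by log2 fold changes between 0.34 and 1.09. SARS1 was at 1.09 (SE 0.16), YARS1 at 0.86 (SE 0.14), WARS1 at 0.68 (SE 0.14) and AARS1 at 0.66 (SE 0.12). CARS1 was at 0.55 (SE 0.12), NARS1 at 0.45 (SE 0.13), VARS1 at 0.40 (SE 0.13) and KARS1 at 0.34 (SE 0.09). Scaling by total counts, which lowered the median of all genes by 0.13 on the log2 scale, removed the calls of KARS1, NARS1 and VARS1, and VARS1 was also lost without replicate 1 of DMSO with M222 (edgeR adjusted p = 0.0526). AARS1, KARS1 and YARS1 also share exon sequence with genes on the opposite strand, which held 16.6%, 55.1% and 30.7% as many counts as they did. KARS1 was the single member whose 6 sorafenib libraries of 6 h, at 256 to 296 CPM, all lay above the 6 DMSO libraries, at 228 to 253 CPM, where 1.06% of genes did so. Its log2 fold change there was 0.16 (SE 0.09, edgeR adjusted p = 0.43).

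The 6 synthetases that were not called at 24 h had log2 fold changes between -0.24 and 0.33. The glutamine enzyme QARS1 was at 0.07 (SE 0.10), the leucine enzyme LARS1 at 0.12 (SE 0.13) and EPRS1, which carries both the glutamate and the proline activity, at 0.14 (SE 0.12). The isoleucine enzyme IARS1 was at 0.33 (SE 0.22), the histidine enzyme HARS1 at -0.23 (SE 0.18) and the arginine enzyme RARS1 at -0.24 (SE 0.16). EPRS1, IARS1, LARS1, QARS1 and RARS1 are, with KARS1 and MARS1, subunits of the multi-synthetase complex of the cytosol. Among the other cytosolic synthetases and proteins of that complex, 1 of 7 was higher at 24 h (14.3%, near the 13.4% of all genes). It was the scaffold protein AIMP1 at 0.36 (SE 0.11), and the median of the list was 0.00. Among the 17 synthetases of mitochondria, 1 was higher and 2 were lower (17.6% called, below the 25.8% of all genes), namely HARS2 at 0.55 (SE 0.19), LARS2 at -0.73 (SE 0.23) and RARS2 at -0.48 (SE 0.12). HARS1 and HARS2 lie head to head with overlapping exons.

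Serine synthesis from a glycolytic intermediate runs through PHGDH, PSAT1 and PSPH in that order. Of these 3 genes PSPH, the phosphatase of the last step, was higher at 24 h. PSPH (ENSG00000146733, chr7:56011051-56051604, minus strand) read 50.4 to 73.0 CPM in DMSO, with a median of 61.5, and 72.4 to 122 CPM in sorafenib, with a median of 87.0. The ranges met at a single library on each side, and the log2 fold change was 0.56 (SE 0.12, edgeR adjusted p = 0.00122). PHGDH was at 0.27 (SE 0.16) and PSAT1 at 0.26 (SE 0.14), neither called. None of the 3 was called at 6 h by edgeR or DESeq2. There 1 passed an unadjusted p under 0.05, where 1962 of 12738 genes did.

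One-carbon metabolism moves the carbon that serine gives up through parallel mitochondrial and cytosolic enzymes. Of the 4 mitochondrial members, 3 were higher at 24 h, with a subgroup median of 1.34, and of the 2 cytosolic members neither was called, with a median of -0.25. At 6 h neither edgeR nor DESeq2 called any of these 6 genes. There 0 passed an unadjusted p under 0.05, where 1962 of 12738 genes did.

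MTHFD2 (ENSG00000065911, chr2:74186172-74217565, plus strand), a mitochondrial dehydrogenase and cyclohydrolase of folate, read 23.2 to 73.7 CPM in DMSO at 24 h, with a median of 48.7, and 76.5 to 190.5 CPM in sorafenib, with a median of 117. All sorafenib libraries were above all DMSO libraries. The log2 fold change was 1.37 (SE 0.17, edgeR adjusted p = 3.06e-06). By transfection the DMSO means of MTHFD2 at 24 h were 67.5 CPM with MC, 39.8 CPM with M222 and 34.8 CPM with M512.

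MTHFD1L (ENSG00000120254, chr6:150865679-151101887, plus strand), which releases formate inside mitochondria, read 35.7 to 63.9 CPM in DMSO at 24 h, with a median of 52.0, and 85.3 to 208 CPM in sorafenib, with a median of 121. The ranges were apart here too. Its log2 fold change was 1.32 (SE 0.14, edgeR adjusted p = 3.13e-07).

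SHMT2 (ENSG00000182199, chr12:57229573-57234935, plus strand), the mitochondrial serine hydroxymethyltransferase, read 87.2 to 129.6 CPM in DMSO at 24 h, with a median of 119, and 126 to 196 CPM in sorafenib, with a median of 140.0. These ranges overlapped. Its log2 fold change was 0.44 (SE 0.11, edgeR adjusted p = 0.00452). ALDH1L2, which oxidises formyl-folate in mitochondria, was at 1.96 (SE 0.92, edgeR adjusted p = 0.119), and at 0 to 2.42 CPM in DMSO and 0 to 4.64 CPM in sorafenib it was near the limit that a count of 0 allows. The cytosolic SHMT1 was at -0.25 (SE 0.19) and the cytosolic MTHFD1 at -0.26 (SE 0.14), which was called lower when scaled by total counts.

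**Figure D2:**
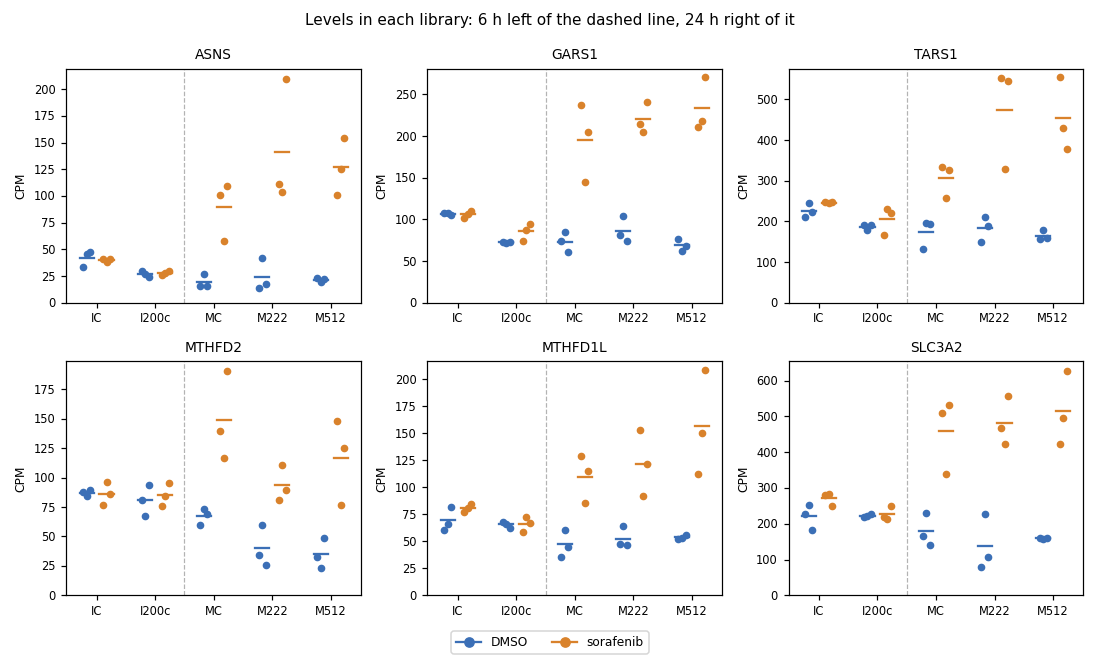
TMM-scaled CPM (y axis) of 6 members in each of the 30 libraries, by transfection (x axis), with DMSO in blue and sorafenib in orange. Points are libraries and bars are the means of 3. Left of the dashed line, at 6 h, the treatments overlap within each transfection, except for GARS1 with I200c. There all 3 sorafenib libraries lie above all 3 DMSO libraries. Right of the line, at 24 h, all 9 sorafenib libraries lie above all 9 DMSO libraries for each of the 6 genes.

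The balance between compartments was described by a ratio of 2 members within a library, a measure chosen after the data were seen and given with no test. The log2 ratio of MTHFD1L to MTHFD1 counts at 24 h was -0.85 ± 0.25 (SD, n = 9) in DMSO and 0.73 ± 0.55 (SD, n = 9) in sorafenib. Its highest DMSO library was at -0.40 and its lowest sorafenib library at -0.08. The difference averaged over transfections was 1.58 at 24 h and -0.04 at 6 h. The log2 ratio of SHMT2 to SHMT1 was 1.98 ± 0.42 (SD, n = 9) in DMSO and 2.72 ± 0.66 (SD, n = 9) in sorafenib, with overlap between the treatments.

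Proline is made from glutamate by ALDH18A1 and then PYCR1, and neither was called in the 24 h average. ALDH18A1 was at -0.55 (SE 0.22, edgeR adjusted p = 0.0692) and PYCR1 at -0.17 (SE 0.11). Scaling by total counts called both lower, and ALDH18A1 was also called lower by DESeq2 and without the filter on low counts. With M512 alone ALDH18A1 was lower, at 108, 87.1 and 116 CPM in the 3 DMSO libraries and 45.6, 19.5 and 66.6 CPM in the 3 sorafenib libraries. The log2 fold change there was -1.26 (SE 0.39, edgeR adjusted p = 0.0408), and the call was lost in 5 of 6 fits that left out 1 library, with the highest adjusted p, 0.155, without replicate 2 of sorafenib. Its interaction with M512 was not called (log2 difference -1.23, SE 0.55, edgeR adjusted p = 0.965).

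Of the 7 transporters, 4 were higher and 1 was lower at 24 h, with a median of 0.43. SLC3A2 is the heavy chain that carries SLC7A5 and other light chains to the plasma membrane. SLC3A2 (ENSG00000168003, chr11:62856004-62888880, plus strand) read 78.7 to 231 CPM in DMSO at 24 h, with a median of 161, and 340.0 to 627 CPM in sorafenib, with a median of 496. The ranges were apart. With a log2 fold change of 1.61 (SE 0.16, edgeR adjusted p = 1.34e-07), or 3.04-fold, it changed most among the called transporters. SLC7A5, the light chain that takes up leucine and other large neutral amino acids, was at -0.21 (SE 0.16, edgeR adjusted p = 0.363). The log2 ratio of SLC3A2 to SLC7A5 within a library, again chosen after the data were seen and not tested, was -0.05 ± 0.66 (SD, n = 9) in DMSO and 1.81 ± 0.67 (SD, n = 9) in sorafenib at 24 h. The difference over transfections was 1.86 at 24 h and 0.62 at 6 h.

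**Figure D3:**
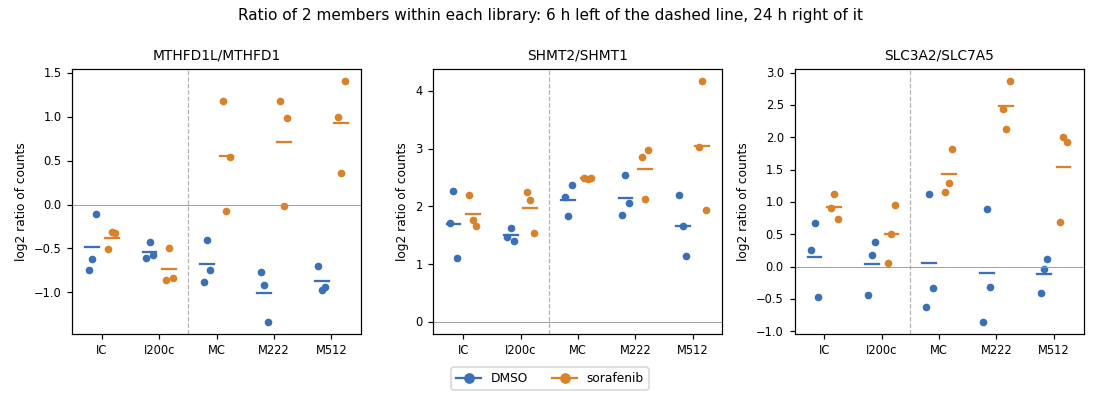
Log2 ratio of the counts of 2 members within each library (y axis) by transfection (x axis), with DMSO in blue and sorafenib in orange. Points are libraries and bars are the means of 3. For MTHFD1L over MTHFD1 the highest DMSO library of 24 h is at -0.40 and the lowest sorafenib library at -0.08, while the treatments overlap for SHMT2 over SHMT1 and for SLC3A2 over SLC7A5.

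The neutral amino acid exchangers SLC1A5 and SLC1A4 were also higher at 24 h. SLC1A5 (ENSG00000105281, chr19:46774883-46788594, minus strand), which takes up glutamine, read 117 to 255 CPM in DMSO, with a median of 178, and 226 to 391 CPM in sorafenib, with a median of 286. The treatments overlapped, and the log2 fold change was 0.74 (SE 0.12, edgeR adjusted p = 9.49e-05). SLC1A4 (ENSG00000115902, chr2:64988477-65023865, plus strand), which takes up alanine, serine and cysteine, read 38.9 to 89.6 CPM in DMSO, with a median of 54.7, and 73.9 to 108 CPM in sorafenib, with a median of 82.6. Its log2 fold change was 0.55 (SE 0.13, edgeR adjusted p = 0.0023), with overlap between the treatments. The glycine transporter SLC6A9 was at 0.07 (SE 0.30), and neither SLC7A5 nor SLC6A9 was called at either time, except SLC7A5 as lower at 6 h without the filter on low counts.

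SLC38A2, a sodium-coupled carrier of small neutral amino acids, moved the other way. SLC38A2 (ENSG00000134294, chr12:46358188-46372773, minus strand) read 377 to 668 CPM in DMSO at 6 h, with a median of 477, and 228 to 408 CPM in sorafenib, with a median of 272. The fall was by 0.77 on the log2 scale (SE 0.14, edgeR adjusted p = 0.00482), and the ranges overlapped slightly. At 24 h it read 399.7 to 655 CPM in DMSO and 268 to 465 CPM in sorafenib, again with overlap. The log2 fold change was -0.36 (SE 0.12, edgeR adjusted p = 0.024), a call lost in 8 of 18 fits that left out 1 library. The highest adjusted p among them, 0.0971, came without replicate 3 of DMSO with M512.

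SLC7A1, the main carrier of arginine and lysine, was lower at 6 h and higher at 24 h. SLC7A1 (ENSG00000139514, chr13:29509414-29595688, minus strand) read 73.6 to 111 CPM in DMSO and 51.7 to 81.2 CPM in sorafenib at 6 h, with medians of 83.1 and 60.6. The log2 fold change was -0.50 (SE 0.13, edgeR adjusted p = 0.0346). At 24 h the medians were 57.2 CPM in DMSO and 78.2 CPM in sorafenib, with ranges of 27.7 to 83.4 and 55.7 to 85.4 CPM, and the log2 fold change was 0.43 (SE 0.15, edgeR adjusted p = 0.0402). The treatments overlapped at both times. The call was lost in 7 of 12 fits without 1 library at 6 h, with the highest adjusted p, 0.126, without replicate 1 of sorafenib with IC, and in 8 of 18 at 24 h, with the highest, 0.0715, without replicate 1 of DMSO with M222. Scaled by total counts it was not called at 24 h (edgeR adjusted p = 0.137).

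**Figure D4:**
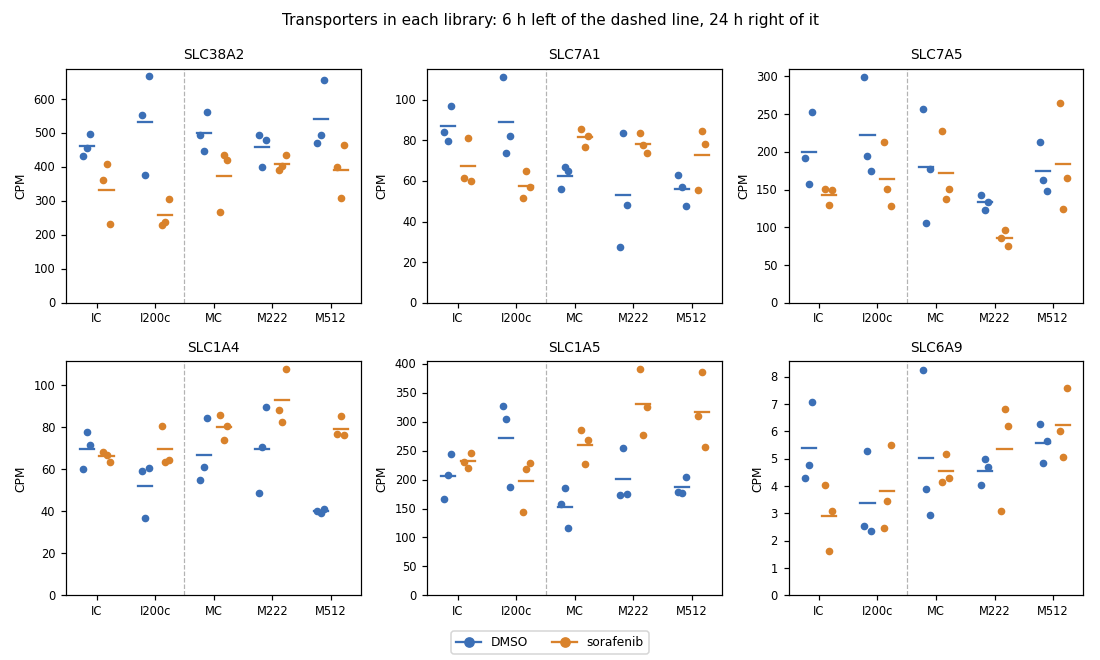
TMM-scaled CPM (y axis) of 6 amino acid transporters in each of the 30 libraries, by transfection (x axis), with DMSO in blue and sorafenib in orange. Points are libraries and bars are the means of 3, with 6 h left and 24 h right of the dashed line. SLC38A2 has sorafenib medians below the DMSO medians at both times (272 against 477 CPM at 6 h), whereas SLC7A1 is lower with sorafenib at 6 h and higher at 24 h.

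Counted without a model, 8 members had all 9 sorafenib libraries above all 9 DMSO libraries at 24 h, and none had all below, where 2.36% of genes lay all above and 1.1% all below. At 6 h no member lay all below, where 1.3% of genes did. The 8 were AARS1, GARS1, MARS1, TARS1, ASNS, MTHFD2, MTHFD1L and SLC3A2.

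The difference between the times was tested in the transfection controls, where IC was taken at 6 h and MC at 24 h, so that time and the kind of control oligonucleotide cannot be told apart. Sorafenib raised ASNS by 2.29 more on the log2 scale at 24 h (SE 0.36, edgeR adjusted p = 0.024) and GARS1 by 1.41 more (SE 0.25, edgeR adjusted p = 0.0265), 2 members where 0.216% of 12500 genes were called in either direction and 0.12% higher. In fits that left out 1 of the 12 libraries GARS1 lost its call in 10 and ASNS in 7, with the highest adjusted p, 0.112 and 0.0833, without replicate 1 of sorafenib with IC. With the transfections of all 30 libraries in 1 fit, 11 members had a higher effect at 24 h, where 9.4% of 13800 genes were called in either direction and 5.34% were higher. The 11 were GARS1, MARS1, SARS1, TARS1, YARS1, ASNS, MTHFD2, MTHFD1L, SLC7A1, SLC3A2 and SLC1A5. SLC7A1, whose sign differed between the times, had a difference of 0.94 there (SE 0.22, edgeR adjusted p = 0.00476) and of 0.73 in the controls alone (SE 0.23, edgeR adjusted p = 0.19).

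Within single transfections the calls were fewer. At 24 h, 8 members were higher and none lower with MC (2.6% of genes called in either direction), 8 and none with M222 (4.38%), and 14 and 1 with M512 (9.96%). ASNS, GARS1, TARS1, MTHFD2, MTHFD1L and SLC3A2 were called higher in each of the 3. ASNS was at 2.21 (SE 0.35), 2.55 (SE 0.36) and 2.51 (SE 0.35) with MC, M222 and M512. The count with MC was 2 without replicate 1 or replicate 3 of DMSO and 4 when scaled by total counts, while ASNS and GARS1 stayed called in all of these. The count with M512 was 9 without replicate 3 of DMSO. At 6 h edgeR and DESeq2 called no member with IC (0.0393% of genes called). An unadjusted p under 0.05 was passed by 2 members with IC, where 481 of 12738 genes passed. With I200c 10 of 36 members passed, where 1945 of 12738 genes did. With I200c 1 member was called (2.28%), SLC38A2, at 553, 377 and 668 CPM in DMSO and 228, 239 and 305 CPM in sorafenib, a log2 fold change of -1.05 (SE 0.21, edgeR adjusted p = 0.00779). The call was lost without replicate 1 or replicate 2 of sorafenib, and 3 members were called without replicate 2 of DMSO. Without the filter on low counts and with DESeq2 the count was 2, with SLC7A1 added.

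Counted without a model within each transfection, 19 members had all 3 sorafenib libraries above all 3 DMSO libraries with MC, 19 with M222 and 19 with M512, where 13.1%, 13.7% and 14.6% of genes did so. All below were SLC38A2 with MC, SLC7A5 with M222, and ALDH18A1 and SLC38A2 with M512, where 11.9%, 13.1% and 15.3% of genes were. At 6 h 1 member lay all above with IC (6.63% of genes) and 9 with I200c (8.54%), and 3 lay all below with IC (6.34%) and 2 with I200c (8.71%). SLC38A2 lay below in both 6 h transfections, SLC6A9 and SLC7A5 with IC and SLC7A1 with I200c. KARS1 lay above in both, and the others above with I200c were AARS1, GARS1, NARS1, QARS1, VARS1, PHGDH, SHMT2 and SLC1A4.

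The oligonucleotides were compared with their controls in DMSO and in sorafenib, and the sorafenib effect was compared between them. In these 9 comparisons edgeR with the filter on low counts called no member. Without the filter it called SLC7A5 in M222 against MC in sorafenib, and PSAT1 and MTHFD2 in M512 against MC in DMSO. Between 0 and 4 members passed an unadjusted p under 0.05 in each comparison. Of all genes, between 260 of 13244 (interaction of M222 with sorafenib) and 1465 of 13244 (M512 against MC in sorafenib) passed. Of all genes, 0.634% were called in M512 against MC in DMSO, 0.355% in M512 against MC in sorafenib, 0.0157% in I200c against IC in DMSO, 0.00755% in the interaction of M512 with sorafenib and 0% in the other 5. M222 and M512 share the MC libraries. DESeq2 also called none, except for PSAT1 and SLC1A4 in M512 against MC in DMSO. In edgeR PSAT1 was at 0.92 there (SE 0.25, adjusted p = 0.106) and SLC1A4 at -0.74 (SE 0.22, adjusted p = 0.144).

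The presence of the composite element was set beside the 24 h result, as a description, since the members were chosen with earlier results known. Of the 20 members that were higher at 24 h, 16 had a promoter in the table and 12 of these held the element (75%). By window this was 14 of 30, with the same site of MTHFD1L counted in 3 of them. Of the 16 members that were not higher, 13 had a promoter and 1 held it, IARS1, in 1 of 13 windows. The members with the element spanned log2 fold changes from 0.33 to 2.43. KARS1, MTHFD2, SARS1 and WARS1 rose and had no match in their windows, which says only that these letters are not there. Outside the members the element and the rise did not go together in this way. Of the 21 genes of the eIF2alpha kinases, ATF4 and its partners and targets, counted below, 18 had a promoter in the table. The element was in 3 of these 18 (16.7%), while 13 of the 20 genes tested in that list were higher at 24 h.

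**Figure D5:**
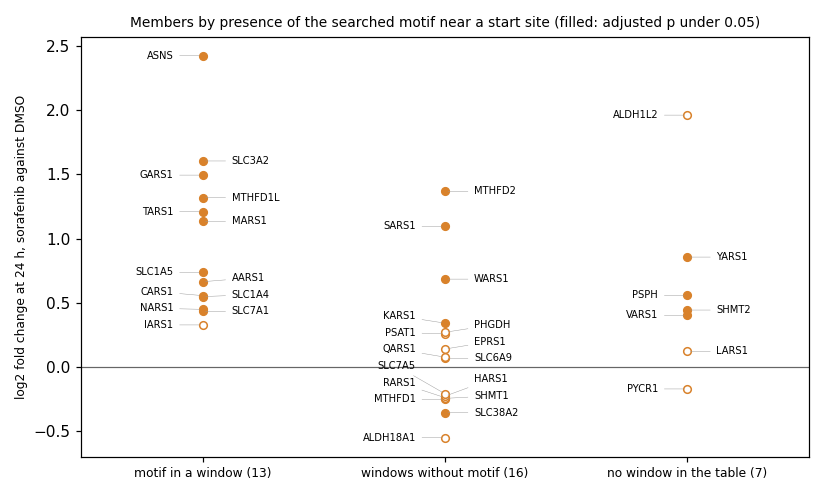
Log2 fold change of sorafenib against DMSO at 24 h (y axis) for the 36 members, split by whether a promoter window held TGATGNAA on either strand (13 genes), held none (16 genes) or was not in the table (7 genes). Points are genes and filled points have an adjusted p under 0.05. The 13 genes with the element lie between 0.33 and 2.43, and 12 of them are called higher.

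Other genes of the same pathways were counted over whole lists, beside a median of -0.04 over all genes at 24 h and the 25.8% of genes called, 13.4% higher and 12.4% lower. Among 21 genes of the eIF2alpha kinases, ATF4 and its partners and targets, 20 were tested at 24 h, 13 were higher and none was lower, with a median of 1.51. PPP1R15A, which directs the phosphatase of eIF2alpha, was at 3.24 (SE 0.23) and the transcription factor ATF3 at 3.22 (SE 0.31). The lipoprotein receptor VLDLR was also called higher, but it read 0 to 1.48 CPM in DMSO with a median of 0 and a median of 2.75 CPM in sorafenib, near the limit that a count of 0 allows, and no fold change is given for it. ATF4 mRNA was at 0.94 (SE 0.14, edgeR adjusted p = 1.85e-05) at 24 h and 0.01 (SE 0.11) at 6 h. At 6 h 4 of 19 tested genes of this list were higher, namely DDIT3, PPP1R15A at 0.86, DDIT4 at 0.83 and NUPR1 at 0.62, where 1.15% of all genes were called higher.

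Among 17 tested other amino acid transporters, 2 were higher and 3 lower at 24 h, a share of 29.4% called beside 25.8% of all genes. The cystine carrier SLC7A11 rose by 2.91 (SE 0.24), the glutamate carrier SLC1A2 fell by 2.35 (SE 0.38) and the aromatic amino acid carrier SLC16A10 fell by 0.96 (SE 0.19). Among 21 tested other amino acid enzymes, 4 were higher and 4 lower, or 38.1% called beside the same 25.8%. CTH, which makes cysteine from cystathionine, rose by 2.08 (SE 0.24), while PYCR3, another reductase of proline synthesis, fell by 1.44 (SE 0.47). Of the 14 genes of the folate and methionine cycle none was higher and 6 were lower (42.9%, where 12.4% of all genes were lower), with a median of -0.35. Among them, MAT1A, the liver enzyme that makes S-adenosylmethionine, fell by 1.17 (SE 0.15) and FTCD, an enzyme of histidine breakdown that feeds folate, fell by 1.07 (SE 0.18).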

How the data were processed

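Messenger RNA of 30 HepG2 cultures in 10 groups of 3 was measured with QuantSeq 3′ FWD libraries. The deposited file used here holds raw read counts per Ensembl gene: the authors trimmed reads, aligned them with STAR to GRCh38 and counted them with HTSeq in a QuantSeq pipeline. DRAGEN and DESeq2 are also named in the submitters' processing notes. Versions of STAR and HTSeq, annotation release, strand setting and whether molecular identifiers were used are not given in the sources used here. A second deposited table, of counts divided by size factors, was not used. Of the rows, 92 named no gene, held 3 counts and were left out, and 56104 of 60107 genes matched a symbol.

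Counts were tested with edgeR 4.0.16 in R 4.3.3 (quasi-likelihood F test, two-sided, TMM scaling, filterByExpr, 1 coefficient per group), with the 12 libraries of 6 h, the 18 of 24 h and the 12 of the transfection controls fitted apart, and Benjamini-Hochberg adjustment over all genes tested. The SE is the log2 fold change divided by the square root of F. The code was tested on simulated data. Levels are TMM-scaled CPM over all 30 libraries. The total count of 3938764 to 9657063 limits precision at low levels, and tests use the spread between replicates. Ratios added an offset of 0.5 to each count. Alternatives were DESeq2 1.42.0, its scaling in edgeR, total counts, no filter, a replicate block, and each library left out in turn.

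The members and lists were chosen with earlier results of these data known. All members are named. Levels by library are given for up to 3 members of a subgroup with the largest change among those called in the 24 h average, and for those called at 6 h or between oligonucleotides. Of other lists up to 3 genes by the same rule, and ATF4, are named, except for some that are not reported here. Positions are from GENCODE release 44. Exons of other genes on the opposite strand overlap 18 members, and in 7 of them (AARS1, HARS1, KARS1, MARS1, YARS1, ALDH1L2 and SLC6A9) those genes held at least 10% as many counts. Named pseudogene copies exist for 14 members and held at most 0.113% of a member's count.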

Additional observations from a re-analysis of the deposited data

Results flagged for a closer look

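The effect of sorafenib on GARS1 and ASNS differed between the transfection control of 24 h (MC) and that of 6 h (IC) by the interaction test. The difference was 1.41 on the log2 scale for GARS1 and 2.29 for ASNS. GARS1 read 108, 108 and 105 CPM in DMSO and 102, 107 and 109.6 CPM in sorafenib with IC, and 74.5, 85.1 and 60.9 CPM in DMSO and 237, 145 and 204 CPM in sorafenib with MC. ASNS read 33.2, 46.1 and 47.7 CPM in DMSO and 41.1, 37.8 and 40.6 CPM in sorafenib with IC, and 16.0, 26.7 and 16.0 CPM in DMSO and 101, 57.7 and 109 CPM in sorafenib with MC. Both controls differ in time and in the kind of oligonucleotide, which cannot be told apart. The call was lost in 10 of 12 fits without 1 library for GARS1 (highest edgeR adjusted p 0.112, without replicate 1 of sorafenib with IC) and in 7 of 12 for ASNS (highest 0.0833, without the same library), and no difference changed sign.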

How the results depend on the processing

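Of the 57 called fold changes of members, none changed sign under any alternative run. In a tally of alternative values 363 kept the call and 38 lost it. That tally summarised the leave-one-out fits of each call and did not count them 1 by 1, so it understates the lost calls. Among single leave-one-out fits, CARS1 with M512 lost its call in 6 of 6 and SLC7A1 in the 24 h average in 8 of 18. With I200c the count of members called was 2 without the low-count filter and 2 with DESeq2 (1 in the report), and 0 to 3 without 1 library. With MC it was 4 with total counts and 2 to 10 without 1 library, with M222 6 to 11 and with M512 9 to 13. The 6 h average gave 4 without the filter (AARS1 and SLC7A5 added) and 1 to 2 without 1 library, and the 24 h average 19 to 22. The time test gave 6 without the filter, 5 with DESeq2, 11 with all 30 libraries and 0 to 5 without 1 library. Without the filter, M222 against MC in sorafenib gave 1 (SLC7A5) and M512 against MC in DMSO 2, as did DESeq2 for the latter, 2. The cause of these shifts was not tested. With total counts the median of all genes moved by -0.11 with MC and M222, -0.19 with M512 and -0.13 in the 24 h average, where 20 members were called, 17 of them also called with TMM, and MTHFD1, ALDH18A1 and PYCR1 were added as lower. Depth limits ALDH1L2 and SLC6A9 most.

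The labels do not say that a replicate number marks a shared culture, batch or day, so the main fits held no term for the number. The median correlation at 24 h was 0.056 for same-number pairs and -0.030 for other pairs, and at 6 h 0.015 and -0.007. Whether libraries of one number share a batch was not tested. Deviations of same-number libraries from their group means correlated by -0.086 to 0.252 at 6 h (over 0.1 in 2 of 18 pairs) and -0.142 to 0.222 at 24 h (11 of 45), and 6 of 12 and 14 of 18 libraries correlated best with their own number. With the replicate block the time test called 1 member, losing GARS1 (edgeR adjusted p = 0.0501), and no other count of members moved by more than 1.5 times.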
